A study of Mus musculus with 6 samples.

Results

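The genes described here encode factors that make ribosomes, a process that starts in the nucleolus. They were chosen by name, as 39 genes of rRNA transcription, modification, cleavage and subunit assembly, and each was represented by the brightest transcript cluster annotated with that symbol alone. By this rule 35 of the 39 were measured, out of 14807 genes with such a cluster. The other 4, Fbl, Dkc1, Wdr43 and Utp18, had no cluster of that kind and were not analysed here. RNA came from N2A cells, a mouse neuroblastoma line grown in serum, in 2 groups of 3 arrays each. Cells of the control group had been given an empty vector, and the others a short hairpin RNA (shRNA) that targets PTB, an RNA-binding protein that represses many exons. Neither group carries a control hairpin, so loss of PTB and other effects of expressing a hairpin cannot be told apart. The labels call the samples of a group biological replicates and give no culture or day for them. They also report western blots with less PTB protein after the hairpin. The comparison of the groups asks which of the mRNAs differ in level when the hairpin is present.

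Ribosome production starts in the nucleolus, where RNA polymerase I transcribes a long precursor rRNA. Small nucleolar ribonucleoproteins (snoRNPs) of the box C/D class guide methylation of its riboses, and those of the box H/ACA class guide the conversion of uridines to pseudouridine. A large complex, the small subunit processome, then folds and cuts the small subunit rRNA, while a separate series of factors assembles the large subunit. Fast-growing tumour cells make many ribosomes, and the transcription factor MYC is known to drive many of these genes. Ribosomal RNA was depleted before labelling, so these arrays measured the mRNAs of the factors and not the rRNA they act on.

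MYC binds the E-box CACGTG, which reads the same on both strands. Because so many genes of this group are known MYC targets, the promoter window of each (from 250 bases before to 50 bases after the annotated start, RefSeq, GRCm38.p6) was searched for these letters. The table held a window for 34 of the 39 genes, and 7 of them (20.6%) contained the E-box, against 8.09% of 27025 genes in the table. Those 27025 genes were not limited to genes measured or bright on these arrays, nor matched in the bases of their promoters. The difference between the shares was not tested, and binding of MYC was not measured. The sites in the 5 measured genes are shown 5′ to 3′ on the gene's strand, with the E-box in capitals, because the values of these same genes are given further on. The Nop2 site lies before the start and the other 4 lie after it, at chr6:125131811-125131840 (plus strand, Nop2), chr10:88826765-88826794 (minus, Utp20), chr11:3963965-3963994 (plus, Pes1), chr11:72441347-72441376 (plus, Mybbp1a) and chr11:74898092-74898121 (plus, Tsr1).
Nop2: gtgtccctggatCACGTGtgttccggtgcc
Utp20: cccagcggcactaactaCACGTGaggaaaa
Pes1: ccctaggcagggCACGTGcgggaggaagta
Mybbp1a: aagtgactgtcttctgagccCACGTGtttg
Tsr1: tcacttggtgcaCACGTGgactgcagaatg

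Values are gene-level signals in array intensity units. Signals of the ribosome biogenesis genes are not compared with each other, because clusters differ in their probes. Signals were set side by side across genes only for the levels of marker genes and for ranking clusters by brightness, both rough for the same reason. A difference is PTB shRNA minus empty vector on the scale log2(signal + 16), with the moderated standard error (SE) of limma, and a gene was called when its Benjamini-Hochberg adjusted p over all 17213 clusters was under 0.05. The summed signal per array lay between 10651755 and 12509077 in the vector group and between 9098056 and 10440265 in the hairpin group. Ptbp1, the gene for PTB, had signals of 3387, 4203 and 4404 with the vector and of 1307, 1040 and 1957 with the hairpin, and fell (-1.51 ± 0.25, SE, adjusted p = 0.0402, limma). Of the neuroblast markers Phox2a, Gata2, Hand2 and Stmn2 had group means between 857 and 2727, whereas the neuronal filament genes Nefl and Nefm, also of the 8 measured neuroblast markers, had group means of at most 24.7. Among these 8, Gata3 rose (175 ± 33.2 to 328 ± 8.19, SD, n = 3 arrays per group, adjusted p = 0.0384, limma) and the other 7 did not pass the test. The markers did not move together, as 3 of the 8 differences were negative and 5 positive. Phox2a and Gata2 were at -0.53 and -0.64, and Isl1 (group means of 666 and 1081) was at 0.73. The 24 measured markers of fibroblasts, glia, leukocytes and epithelium had group means between -2.33 and 130, and 1 of them, the fibroblast receptor gene Pdgfra, rose (36 ± 6.08 to 102 ± 21.5, SD, n = 3 arrays per group, adjusted p = 0.0342, limma). The part of these rises in the values given here was not tested. These are bulk cultures, so fewer cells with an RNA and less of it per cell cannot be told apart. With 3 arrays against 3, an exact permutation test cannot give a p below 0.1, and the calls rest on limma.

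No ribosome biogenesis gene of the 35 measured passed the test. The genes were nevertheless mostly on the lower side with PTB shRNA: the difference was negative in 30 of 35, and its median was -0.28 against 0 over all clusters, but after quantile normalization of the arrays only 20 of 35 were negative and the median was -0.03. Adjusted p-values ran from 0.0803 for Nob1 to 0.993 for Rrp9, and the background share called was 3.37% lower and 1.36% higher. At an unadjusted p under 0.05, 9 genes (25.7%) were lower and 0 higher in limma, where 16.9% of all clusters were lower and 8.49% higher. That count of 9 became 18 without empty vector array 1. Of the 17213 clusters 3018 were then lower at this p, against 2915 with all arrays. It was 5 without empty vector array 3, PTB shRNA array 1 or PTB shRNA array 2 (2270, 2596 and 2008 clusters). Without empty vector array 2 it was 6 (2196 clusters) and without PTB shRNA array 3 it was 13 (2834 clusters). After quantile normalization again 0 genes passed (background 2.87% lower and 2.92% higher), while at an unadjusted p under 0.05, 5 genes (14.3%) were lower and 3 (8.57%) higher, against 12.7% and 12.4% of all clusters. In 10 of the 35 genes (28.6%) all PTB shRNA arrays lay below all empty vector arrays, against 19.0% of all clusters, and in 0 they lay above them, against 10.3%. After quantile normalization the arrays of the groups were apart in 6 genes on the lower and 4 on the higher side, against 14.8% of all clusters on each.

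The comparison with all clusters mixes bright and dim ones, and 33 of the 35 genes lay in the brightest 3 deciles of clusters by mean signal. Among the 5164 clusters of those deciles 6.29% were called lower. Their median difference was -0.20, and 32.1% were lower at an unadjusted p under 0.05. In this fit of all 6 arrays, the share of ribosome biogenesis genes that reached this p, 25.7%, was no larger than that of these bright clusters. With 1 array left out, 5 to 18 of the 35 genes reached it, and no share for clusters of like brightness was taken there. Against the median of their own decile, 21 of the 35 genes were more negative. Settings that tested fewer clusters or modelled the variance otherwise called up to 8 genes lower, at shares near those of all clusters. Without the dimmest 50% of clusters 8 of 35 were called (22.9%, background 24.4%), and without the dimmest 30% 4 were called (11.4%, background 11.5%). Trended robust eBayes called 4 (background 8.73%) and array weights 2 (5.71%, background 6.86%). Polr1c and Nob1 were among them in each of these settings.

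**Figure D1:**
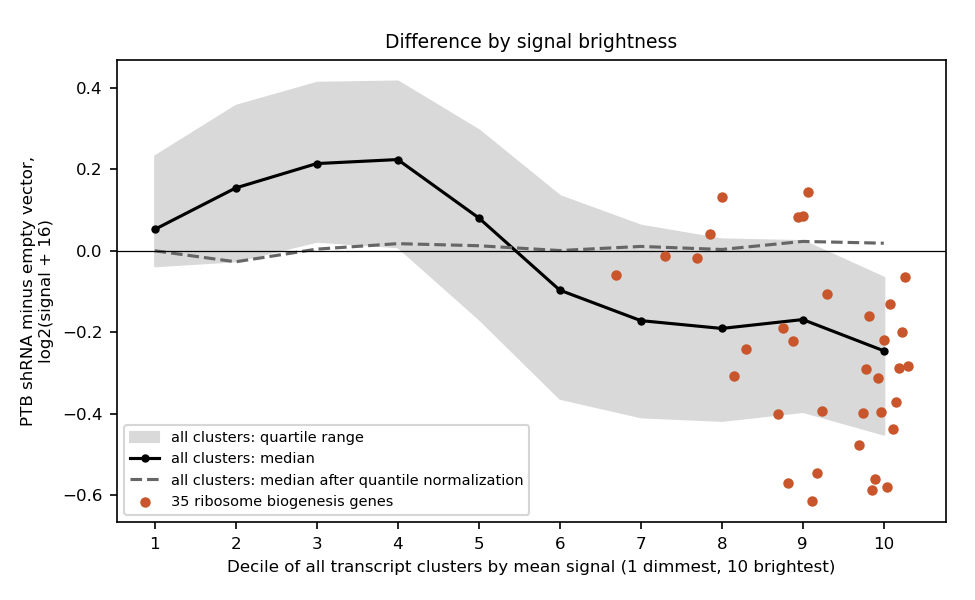
Difference (PTB shRNA minus empty vector, log2(signal + 16)) against brightness, in deciles of all clusters by mean signal, with the median (black line) and quartile range (grey) of all clusters, their median after quantile normalization (dashed) and each of the 35 genes (orange; points are spread sideways for legibility). The median of all clusters runs from 0.22 in decile 4 to -0.25 in the brightest and is near 0 in every decile after quantile normalization, and most orange points lie in the 3 brightest deciles.

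RNA polymerase I was represented by 3 subunit genes. Polr1c, whose product is shared between RNA polymerases I and III, had signals of 1777, 2301 and 2354 with the vector and 1466, 1251 and 1532 with the hairpin. The groups did not overlap, and the difference was -0.59 ± 0.15 (SE, 95% interval -0.96 to -0.22, adjusted p = 0.0837, limma). A second cluster of the gene gave a like value, -0.63 ± 0.13 (adjusted p = 0.0604). Its signals were close to those of the first on each array (1812, 2311 and 2239 against 1384, 1226 and 1475). It was read on the same arrays and is no further replicate, and whether the clusters share sequence was not tested. Polr1b, which encodes a catalytic subunit, had 991, 1268 and 1085 with empty vector and 791, 779 and 947 with the hairpin. These groups did not overlap either, with a difference of -0.40 ± 0.13 (interval -0.73 to -0.07, adjusted p = 0.139). Polr1a, the gene of the largest subunit, had 1143, 1376 and 1301 against 1116, 1022 and 1201, groups that overlap, at -0.19 ± 0.11 (adjusted p = 0.348). After quantile normalization the 3 differences were -0.38, -0.21 and -0.003, with adjusted p-values of 0.0706, 0.315 and 0.997. The groups then stayed apart in Polr1c and overlapped in Polr1b and Polr1a.

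Of the box C/D snoRNP core, Nop56 and Nop58, related scaffold proteins, were measured. Nop56 had signals of 3825, 5079 and 5051 with the vector and 3112, 2646 and 3708 with the hairpin. All hairpin arrays lay below all vector arrays, with a difference of -0.56 ± 0.18 (SE, interval -1.002 to -0.12, adjusted p = 0.127, limma), and of -0.29 after quantile normalization, where the groups overlapped. Nop58 had 1589, 2349 and 2366 against 1536, 1604 and 1859, so that 1 vector array lay among the hairpin arrays (-0.31 ± 0.19, adjusted p = 0.36).

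The box H/ACA side was represented by the core proteins Nhp2 and Gar1 and by Nolc1, a chaperone of snoRNPs. Nolc1 had signals of 1693, 2060 and 2215 with the vector and 1320, 1328 and 1924 with the hairpin. PTB shRNA array 3 lay above the first vector array, and the difference was -0.39 ± 0.19 (SE, interval -0.87 to 0.08, adjusted p = 0.27, limma). Nhp2 measured 3427 ± 923 and 2898 ± 440 (SD, n = 3 arrays per group) and Gar1 558 ± 167 and 518.3 ± 30.9. Their differences were -0.22 (interval -0.77 to 0.33) and -0.06 (interval -0.65 to 0.53), and the groups overlapped in both. After quantile normalization the difference of Nolc1 was -0.18, and those of Nhp2 and Gar1 were positive, at 0.04 and 0.14.

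Among the abundant nucleolar proteins, Npm1 (nucleophosmin, a chaperone of ribosomal particles) was the gene whose order of groups depended on the scale. Its signals were 8514, 9225 and 10527 with the vector and 8298, 6920 and 7877 with the hairpin. As deposited all hairpin arrays were lower (-0.29 ± 0.12, SE, adjusted p = 0.211, limma), and after quantile normalization all hairpin arrays were higher (0.12, adjusted p = 0.3). Ncl (nucleolin, which binds precursor rRNA) had 4074, 4688 and 5268 against 3914, 3851 and 4774, overlapping groups at -0.16 ± 0.14, and 0.14 after quantile normalization. Mybbp1a, a nucleolar protein that binds the MYB transcription factor, had 1624, 2078 and 2500 against 1327, 1228 and 1907. Its PTB shRNA array 3 lay above the first vector array, with a difference of -0.48 ± 0.23 (interval -1.06 to 0.11, adjusted p = 0.274), and of -0.27 after quantile normalization. Gnl3 (nucleostemin, a nucleolar GTPase) measured 2446 ± 518 and 1831 ± 237 (SD, n = 3 arrays per group), at -0.40 ± 0.19 (SE, adjusted p = 0.272).

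The small subunit genes split. Nob1, the nuclease that makes the last cut of the small subunit rRNA, had signals of 1453, 1893 and 1881 with the vector and 1134, 1072 and 1285 with the hairpin. The groups did not overlap, and the difference of -0.57 ± 0.14 (SE, interval -0.92 to -0.22) had the smallest adjusted p of all 35 genes (0.0803, limma). Nop14, a processome component, had 1606, 2307 and 1841 against 1188, 1274 and 1336. These groups were also apart, at -0.58 ± 0.15 (interval -0.95 to -0.20, adjusted p = 0.0877). After quantile normalization Nob1 and Nop14 kept groups that did not overlap, at -0.37 (adjusted p = 0.0736) and -0.38 (adjusted p = 0.17).

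The other 9 small subunit genes had differences between -0.22 and 0.14, and the groups overlapped in each. Nat10, the enzyme that acetylates cytidines of the small subunit rRNA, had signals of 1092, 1354 and 1397 with the vector and 1421, 1315 and 1496 with the hairpin. It had the most positive difference of the 35 genes as deposited, 0.14 ± 0.12 (SE, interval -0.17 to 0.45, adjusted p = 0.526, limma), and after quantile normalization its groups were apart at 0.34 (adjusted p = 0.0609). Rrp12, which acts in maturation and export of the subunits, had 551, 765 and 736 against 719, 669 and 854. Ddx10, an RNA helicase, had 592, 685 and 747 against 678, 672 and 727. In both the first vector array was the lowest of all 6, and the differences were 0.13 ± 0.17 and 0.04 ± 0.11. After quantile normalization their groups were apart too, with the hairpin arrays higher (0.33 and 0.24, adjusted p = 0.17 and 0.121).

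The processome components Utp20 and Heatr1 and the GTPase Bms1 measured 1028 ± 228, 848.7 ± 184 and 1001 ± 215 with the vector, against 1080 ± 144, 828.3 ± 94.1 and 1052 ± 126 with the hairpin (SD, n = 3 arrays per group). Their differences were 0.09, -0.02 and 0.08. Rrp9, a protein of the U3 snoRNP, had the widest interval of all 35 genes, from -0.61 to 0.58 around -0.01. Utp15, of the processome part that also serves rRNA transcription, and Tsr1, a late assembly factor, had differences of -0.22 ± 0.13 and -0.13 ± 0.15 (SE). These intervals do not exclude differences of some size in either direction.

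**Figure D2:**
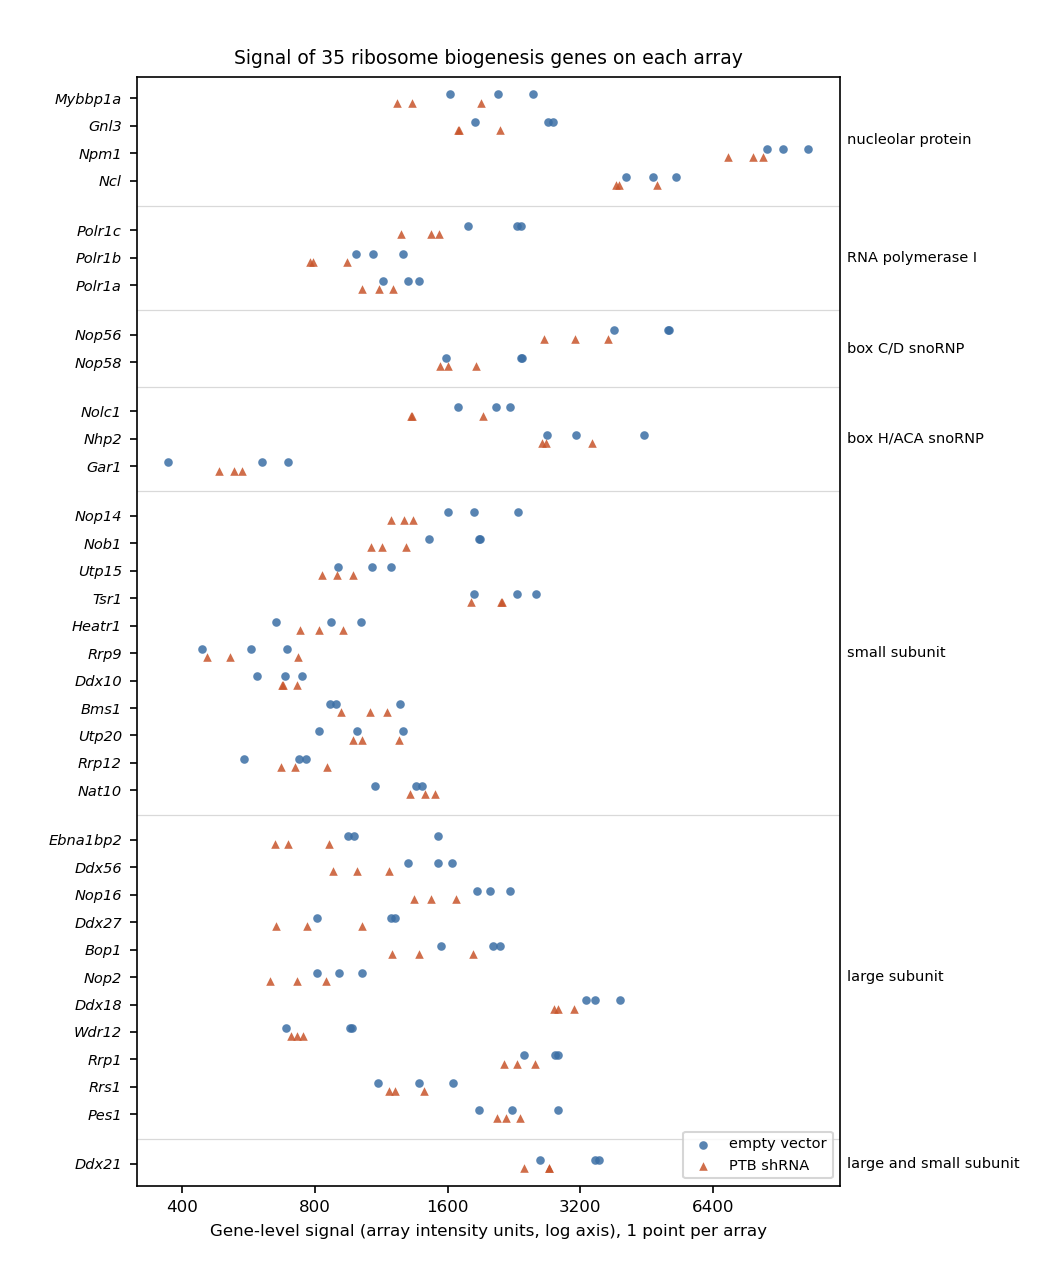
Signal of each of the 35 genes on each array (log axis, array intensity units), 1 point per array, grouped by role, to be compared within a gene and not between genes. In Polr1c, Polr1b, Nop56, Nop14, Nob1, Ebna1bp2, Ddx56, Nop16, Ddx18 and Npm1 the triangles (PTB shRNA) all lie left of the circles (empty vector). After quantile normalization this order turns round for Npm1, and the groups overlap in Polr1b, Nop56 and Ddx18.

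All 11 large subunit genes had negative differences as deposited, 8 of 11 after quantile normalization. Ebna1bp2, an assembly factor, had signals of 949, 983 and 1525 with the vector and 695, 649 and 861 with the hairpin. It had the most negative difference of the 35 genes, -0.61 ± 0.22 (SE, interval -1.16 to -0.06, adjusted p = 0.161, limma), and 1 vector array stood well above the other two. Without that array (empty vector array 3) the difference was -0.40. Ddx56, an RNA helicase of large subunit assembly, had 1303, 1523 and 1634 against 996, 878 and 1175, groups apart at -0.55 ± 0.15 (interval -0.91 to -0.18, adjusted p = 0.0922). Nop16 had 1862, 1996 and 2218 against 1467, 1343 and 1672, groups apart at -0.44 ± 0.12 (interval -0.74 to -0.14, adjusted p = 0.0962). The helicase gene Ddx18 had 3293, 3450 and 3947 against 2846, 2793 and 3097, groups apart at -0.29 ± 0.10 (interval -0.54 to -0.03, adjusted p = 0.159). After quantile normalization the groups stayed apart in Ebna1bp2 (-0.41), Ddx56 (-0.36) and Nop16 (-0.23) and overlapped in Ddx18 (-0.03).

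Bop1, Pes1 and Wdr12 encode the PeBoW complex, which is needed for processing of the large subunit rRNA. Bop1 had signals of 1543, 2026 and 2109 with the vector and 1379, 1199 and 1827 with the hairpin (-0.37 ± 0.20, SE, adjusted p = 0.32, limma). Wdr12 had 688, 972 and 961 against 705, 727 and 751 (-0.24 ± 0.15, adjusted p = 0.388). Pes1 had 1884, 2236 and 2851 against 2169, 2073 and 2331 (-0.07 ± 0.17, adjusted p = 0.848). The groups overlapped in all 3 genes, and Pes1 was positive after quantile normalization (0.17).

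The remaining large subunit genes were Ddx27, an RNA helicase (-0.39 ± 0.24, SE), Nop2, an rRNA methyltransferase (-0.31 ± 0.15), Rrp1 (-0.20 ± 0.11) and Rrs1, which helps to load the small 5S-containing particle (-0.11 ± 0.17). Ddx21, a helicase that acts in rRNA transcription and processing, had signals of 2599, 3453 and 3533 with the vector and 2720, 2381 and 2715 with the hairpin. Its first vector array lay among the hairpin arrays, at -0.28 ± 0.15 (interval -0.65 to 0.09, adjusted p = 0.303, limma), and -0.03 after quantile normalization. Among the genes with the E-box sites shown above, Nop2 and Mybbp1a were at -0.31 and -0.48, Tsr1 and Pes1 at -0.13 and -0.07 and Utp20 at 0.09, and the groups overlapped in all 5.

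**Figure D3:**
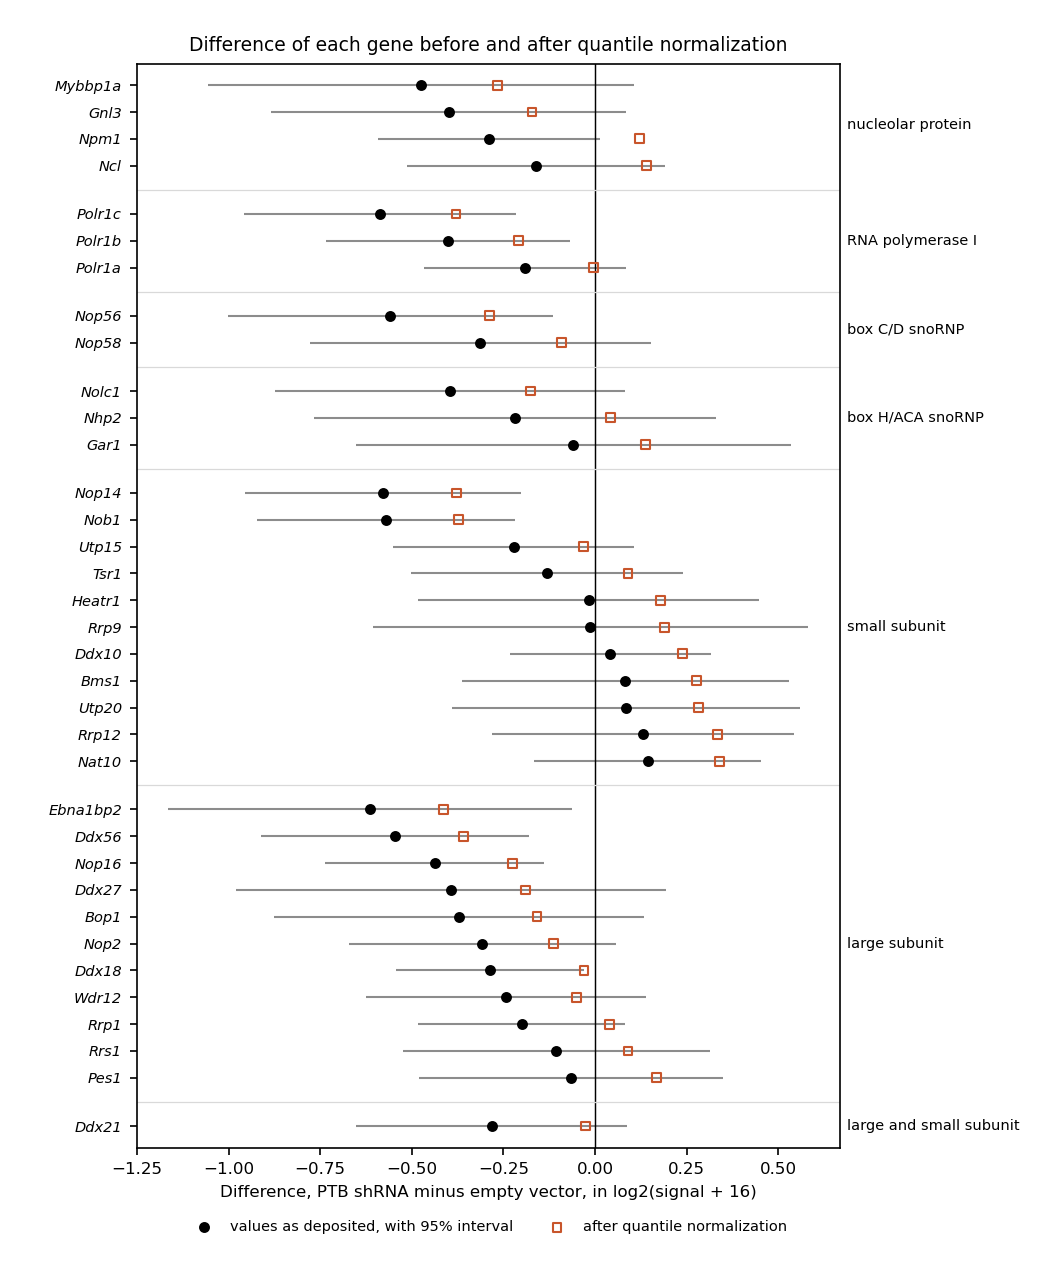
Difference of each of the 35 genes (PTB shRNA minus empty vector, log2(signal + 16)) as deposited with its 95% interval (black) and after quantile normalization (open squares), by role. Every square lies to the right of its black point, the intervals of 9 genes lie below 0 as deposited, and the small subunit genes spread to both sides while the large subunit genes are all negative as deposited.

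The small and large subunit genes therefore had different medians, -0.01 for the 11 small subunit genes and -0.31 for the 11 large subunit genes, and 0.19 and -0.11 after quantile normalization. To set them side by side within an array, where a common factor of the array cancels, the median deviation of each list from its genes' means over 6 arrays was taken. The small subunit median minus the large subunit median was -0.17, -0.13 and -0.07 on arrays of the vector group, against 0.06, 0.17 and 0.21 on arrays of the hairpin group. After quantile normalization these values were -0.18, -0.13 and -0.03, and 0.10, 0.17 and 0.19. The values of the hairpin arrays thus all lay above those of the vector arrays, on both scales. Deviations of a gene sum to 0 over the 6 arrays. Opposite signs in the groups therefore largely follow from the different medians and are no second observation. The gap was largely absent in the other subunit genes given below. Genes of a list share their arrays and are no replicates, so no test was made of the difference between the lists. Members and roles were also chosen with earlier results of these data known, which limits this comparison further.

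The ribosome biogenesis genes varied together among arrays of the same group. In all 35 genes empty vector array 1 was the lowest of the 3 vector arrays, as it was in 46.2% of all clusters and in 70.9% of those in the 3 brightest deciles. PTB shRNA array 3 was the highest of the 3 hairpin arrays in 31 of the 35, against 32.2% of all clusters and 47.3% of those in the 3 brightest deciles. In 24 of the 35 genes PTB shRNA array 3 lay above empty vector array 1. For this count no share of all clusters or of bright ones was taken, so it is not read as particular to these genes. After quantile normalization empty vector array 1 was the lowest of its group in 26 genes and PTB shRNA array 3 the highest of its group in 26, where the shares of all clusters were 35.2% and 35.7%. The median of the 35 genes, relative to each gene's mean, was -0.11, 0.20 and 0.30 on the vector arrays and -0.17, -0.23 and 0.02 on the hairpin arrays. The range within the vector group was wider than the difference between the groups, -0.28, but a range of 3 arrays and a difference of groups are unlike measures. The SD of these array medians within a group, pooled over the groups, was 0.18. Without empty vector array 1 the median difference was -0.37 with 34 of 35 genes negative, and without empty vector array 3 it was -0.20 with 25 negative.

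**Figure D4:**
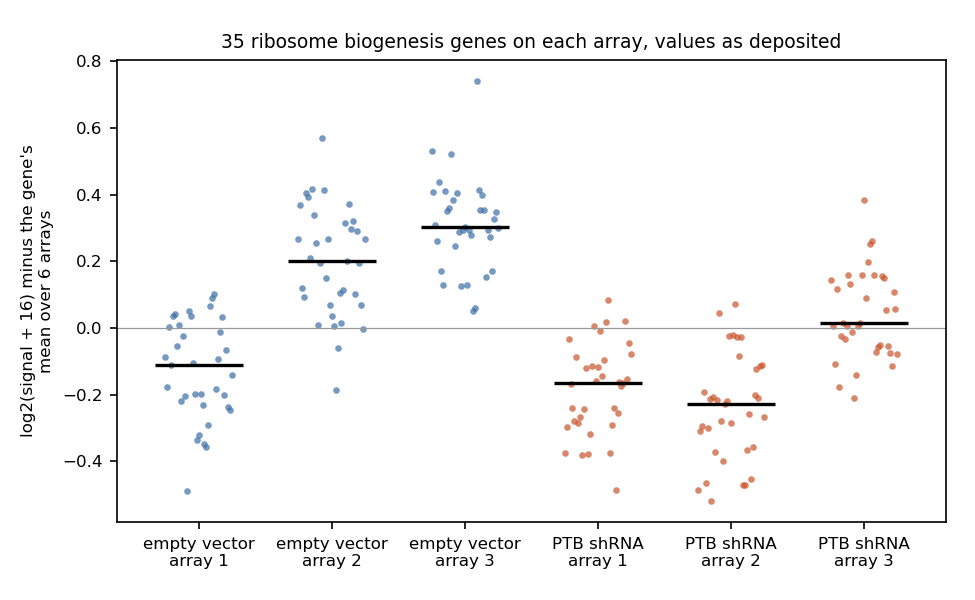
Deviation of each of the 35 genes from its own mean over 6 arrays (log2(signal + 16), values as deposited), with the median of the genes on each array (black bar). Empty vector array 1 (median -0.11) lies near the hairpin arrays and PTB shRNA array 3 (0.02) lies above the first vector array.

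MYC family genes were read beside these genes. Myc had signals of 4803, 6044 and 6086 with the vector and 4247, 3222 and 4125 with the hairpin. Its groups did not overlap, with empty vector array 1 again the lowest of the vector arrays, and it did not pass (-0.55 ± 0.16, SE, adjusted p = 0.106, limma, and -0.24 after quantile normalization). Mycn had 1042, 1008 and 1188 against 1441, 919 and 935, overlapping groups at -0.003 ± 0.20, with a positive difference after quantile normalization (0.19).

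The rest of the pathway was taken from a list of 116 other ribosome biogenesis genes, of which 96 were measured. Of these 2 fell and 0 rose (2.08% lower, against 3.37% of all clusters and 6.29% of those in the 3 brightest deciles). Both genes that fell act with the RNA exosome, which trims precursor rRNA. The exosome subunit gene Exosc5 had signals of 490, 584 and 532 with the vector and 279, 209 and 323 with the hairpin (-0.96 ± 0.17, SE, adjusted p = 0.045, limma, and 0.0427 after quantile normalization). Mphosph6, which encodes an exosome-associated protein, had 1036, 989 and 1132 against 567, 702 and 698 (-0.67 ± 0.12, adjusted p = 0.0434, but 0.0882 after quantile normalization and 0.0551 with arrays centred on their median). The median of the 96 genes was -0.25, with 84 negative, and -0.04 with 56 negative after quantile normalization. By role the median was -0.46 for 13 exosome genes, -0.37 for 6 other snoRNP genes, -0.23 for 38 other large subunit genes, -0.19 for 34 other small subunit genes and -0.11 for 5 other RNA polymerase I genes. In the other small and large subunit genes the medians after quantile normalization were 0.01 and -0.03. On both scales these medians lay close together. The gap between the subunits among the first 35 genes, -0.01 against -0.31 as deposited, was thus largely absent here.

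The proteins that these factors assemble into ribosomes gave a different count. Of 79 cytosolic ribosomal protein genes 42 were measured, and 7 of them (16.7%) fell and 0 rose, against the background of 3.37% lower. All 7, and 38 of the 42, lay in the brightest of 10 equal parts of the clusters, where 5.4% were called lower. Rpl28 had signals of 7599, 7891 and 8781 with the vector and 4292, 3333 and 4912 with the hairpin, groups apart at -0.97 ± 0.16 (SE, adjusted p = 0.0405, limma). Rpl4 (-0.96), Rpl23a (-0.95) and Rpl12 (-0.92) fell too, though with the mean of all clusters of a gene Rpl23a and Rpl12 had adjusted p-values of 0.0528 and 0.0546. The ribosomal protein list had a median of -0.59, and of -0.26 after quantile normalization with 6 of the genes lower, against -0.28 and -0.03 for the 35 ribosome biogenesis genes. These genes use the same arrays, and the difference between the lists was not tested. Leaving out any 1 array ended every call named here in limma, those of Ptbp1, Gata3, Pdgfra, Exosc5, Mphosph6 and the ribosomal protein genes, and a pseudocount of 1 ended all of these too.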

How the data were processed

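The authors deposited 1 linear intensity per transcript cluster and array of an Affymetrix mouse exon array, some of them below 0. The submitters' processing notes name GCOS 1.3. The sources used here do not give the summarization, background method or scaling of these intensities. Gene-level values do not show exon use. Of 17213 clusters, 15146 carried 1 gene symbol and were named through the platform annotation. Of these, 15088 matched RefSeq (GRCm38.p6) by Entrez identifier, and 0 symbols changed. For 1 of the 35 genes, Polr1c, a second cluster existed.

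Values below 0 were set to 0, log2(signal + 16) was taken without further normalization or filter, and all 6 arrays were fitted with limma 3.58.1 (lmFit, eBayes, R 4.3.3) without a block. Intervals are 95% from the moderated fit. The fit was tested on simulated data. Figures used matplotlib 3.10.9. Groups came from sample titles. The labels do not say that replicates came from separate cultures, beyond calling them biological, so p-values measure the spread between these samples. Same-numbered arrays deviated together with correlations of 0.23, 0.055 and 0.26, against -0.26 to 0.050 for arrays of different numbers. Each same-numbered value was the highest for its arrays, so a pairing by number remains possible. The labels name no pairs, so the main fit took none, and the replicate block is among the alternatives.

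Per-array values were given for the 8 genes with the smallest adjusted p, the gene of each role with the largest absolute difference, and others chosen after their values were seen. From the other lists, called genes with the largest differences were named, plus Ptbp1, Myc and Mycn. The called markers Gata3 and Pdgfra were named after their values were seen. Members, lists and roles were chosen with earlier results of these data known. Alternatives were quantile normalization, median centring, a pseudocount of 1 or 50, a filter on the dimmest 30% or 50% of clusters, trended robust eBayes, array weights, the mean of all clusters of a gene, the replicate block and leaving out each array.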

Additional observations from a re-analysis of the deposited data

How the results depend on the processing

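No ribosome biogenesis gene was called higher under any alternative run, and 0 were called lower with quantile normalization, median centring, either pseudocount, the mean of all clusters of a gene, the replicate block or any 1 array left out. Some were called lower with fewer clusters tested or another variance model, at shares near the background: 4 of 35 (11.4%) without the dimmest 30% of clusters (background 11.5%), 8 (22.9%) without the dimmest 50% (background 24.4%), 4 (11.4%) with trended robust eBayes (background 8.73%) and 2 (5.71%) with array weights (background 6.86%). Polr1c and Nob1 were called in all 4, at adjusted p-values from 0.00844 to 0.0482 and from 0.00925 to 0.0462, and Nop14 and Ddx56 in the first 3. The median of -0.28 became -0.030 with quantile normalization, and ranged from -0.37 to -0.20 with any 1 array left out.

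Over all clusters 234 were higher and 580 lower as deposited (71.3% lower). The counts were 503 and 494 with quantile normalization (49.5% lower), 376 and 716 with median centring, 84 and 132 with a pseudocount of 1, 322 and 930 with one of 50, 499 and 1386 without the dimmest 30%, 386 and 2100 without the dimmest 50%, 463 and 1502 with trended robust eBayes and 445 and 1180 with array weights. With the replicate block, and with any 1 array left out, all counts were 0 (range 0 to 0), those of the other 2 lists included. At an unadjusted p under 0.05, limma gave 5 to 18 of the 35 genes lower and 0 higher with 1 array left out, and 12 lower and 0 higher with the block, where 2008 to 3018 and 2963 of all clusters were lower. Gata3 and Pdgfra had adjusted p-values of 0.0577 and 0.0505 with a pseudocount of 1. Ptbp1 had an adjusted p of 0.0605 with a pseudocount of 1, 0.084 with the block and 0.0536 to 0.132 with 1 array left out. Among other ribosome biogenesis genes, the 2 lower calls became 1 with quantile normalization, 3 with median centring (Mphosph6 not among them, adjusted p = 0.0551), 0 and 5 with pseudocounts of 1 and 50, 9 and 28 without the dimmest 30% and 50%, 11 with trended robust eBayes and 6 with array weights. The 7 lower ribosomal protein genes became 0 with a pseudocount of 1, 22 and 34 without the dimmest 30% and 50%, 22 with trended robust eBayes and 13 with array weights.

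Signs turned in genes that were not called. With quantile normalization Gar1 (0.138), Heatr1 (0.179), Ncl (0.14), Nhp2 (0.042), Npm1 (0.121), Pes1 (0.168), Rrp1 (0.040), Rrp9 (0.189), Rrs1 (0.090), Tsr1 (0.090) and Mycn (0.186) were positive. With median centring Heatr1 (0.00696), Rrp9 (0.012) and Mycn (0.021) were positive, as was Mycn with array weights (0.012). With any 1 array left out the difference ranged from -0.0115 to 0.250 for Bms1, -0.047 to 0.117 for Ddx10, -0.32 to 0.12 for Gar1, -0.19 to 0.12 for Heatr1, -0.205 to 0.0918 for Pes1, -0.0131 to 0.218 for Rrp12, -0.21 to 0.14 for Rrp9, -0.250 to 0.0306 for Rrs1, -0.0669 to 0.247 for Utp20 and -0.21 to 0.11 for Mycn. The number of arrays limits precision: the SE of the 35 genes lay between 0.10 and 0.24. The cause of the shift with quantile normalization was not tested.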
